A study of Homo sapiens with 6 samples.

Results

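The receptors through which ACTH, angiotensin II and other hormones drive adrenal steroid output were examined in NCI-H295R cells, an established human adrenocortical carcinoma line. The set held 10 genes, chosen by name, and all 10 were found among the 34869 genes of the deposited table. It comprised the ACTH receptor MC2R and its accessory proteins MRAP and MRAP2, the related melanocortin receptor MC4R, the angiotensin II receptor AGTR1, the serotonin receptor HTR4, the vasopressin receptor AVPR1A, the endothelin receptors EDNRA and EDNRB, and the gonadotropin-releasing hormone receptor GNRHR. Cells of the shTPD52 group (3 libraries) had received lentivirus with a short hairpin RNA against TPD52, and those of the shCtrl group (3 libraries) lentivirus with a non-targeting hairpin. Both groups share the cell line, the viral delivery and a medium of DMEM/F12 with serum and insulin-transferrin-selenium. The labels record no secretagogue treatment, do not say how many hairpins were used, and leave unsaid whether replicates came from separate cultures. P-values therefore cover the spread among these libraries alone, which may be technical.

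ACTH acts through MC2R, a receptor coupled to the stimulatory G protein that raises cyclic AMP, and MRAP brings MC2R to the cell surface. Angiotensin II acts through AGTR1, which couples to Gq, phospholipase C and calcium, and it is a main physiological stimulus of aldosterone output in the zona glomerulosa. Serotonin, vasopressin, endothelins and gonadotropin-releasing hormone can add to that output in human adrenal tissue, and some of their receptors have been found in aldosterone-producing adenomas. NCI-H295R cells are known for a strong response to angiotensin II and a weak one to ACTH.

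MC2R and MRAP, the 2 components of the ACTH receptor complex, rose in shTPD52 cells, by 3.54-fold and 2.64-fold in mean FPKM (reads scaled to gene length and library size), and the MRAP call was fragile. AGTR1 was the most abundant receptor of the set in both groups and did not pass the test. GNRHR, EDNRA and EDNRB were present near 1 FPKM and did not pass. MRAP2, MC4R and HTR4 lay at or near the limit of detection in both groups, and AVPR1A was detected in every library at 0.1 FPKM or less.

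The stretch of genome before the outer start site of MC2R is shown because this gene has the largest change of the set. It is the 250 bases before the start on GRCh38.p14, from RefSeq, chr18:13915708-13915957, read 5′ to 3′ on the minus strand. Capitals mark TCAAGG, searched as a short SF-1 motif. SF-1 is the nuclear receptor that drives steroidogenic genes. The match is the reverse complement of TCAAGG, at 35 to 30 bases before the start.
MC2R promoter: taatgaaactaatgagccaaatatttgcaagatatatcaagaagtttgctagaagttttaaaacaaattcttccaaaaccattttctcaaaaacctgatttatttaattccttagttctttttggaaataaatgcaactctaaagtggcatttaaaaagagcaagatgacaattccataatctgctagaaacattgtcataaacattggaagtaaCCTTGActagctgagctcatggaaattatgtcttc
Of 35116 such windows before RefSeq starts, 10.5% held TCAAGG on either strand. The window before the second MC2R start, at chr18:13915537-13915786, overlaps the first and held 2 matches, 1 of which is the site marked in capitals, so the windows hold 2 distinct matches between them. Neither MC2R window held the longer SF-1 motif CAAGGTCA (1.14% of all windows), the cyclic AMP response element TGACGTCA (1.65%), the AP-1 motif TGACTCA (4.2%) or the TATA box TATAAA (10.7%). TCAAGG and CAAGGTCA can share bases, and the other motifs were searched separately. Windows were at hand for 8 of the 10 genes, with MRAP and AGTR1 not among them. A match is a description of letters and not evidence of binding.

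The depth recovered from the FPKM ran from 29544341 to 38396624 reads per shTPD52 library and from 30582681 to 36885546 per shCtrl library. TPD52, the targeted gene, stood at 0.630, 0.635 and 0.655 FPKM in the 3 shTPD52 libraries, against 1.42, 1.18 and 1.29 FPKM in the 3 shCtrl libraries, and the groups did not overlap. When TPD52 was added to the limma fit its log2 difference was -0.65 (SE 0.14, adjusted p = 0.0218). The call held in 11 of 19 alternatives (limma adjusted p from 0.00439 to 0.098), but after removal of single libraries it held in 1 case of 6. Of 8 markers of adrenocortical steroid cells, all were above 1 FPKM in every library, SF-1 (NR5A1) among them at 69.2 to 78.2 FPKM in shTPD52 and 70.9 to 73.2 FPKM in shCtrl. These markers moved with the group: they summed to 452 to 461 FPKM in shTPD52 and 398 to 421 FPKM in shCtrl, and HSD3B2, CYP21A2 and FDX1, a steroid dehydrogenase, a hydroxylase and an electron carrier of steroid synthesis, were called higher. The other 5 were not called: CYP11A1 and INHA were higher without overlap (log2 differences 0.35 and 0.37), CYP17A1 was lower without overlap at 38.4 ± 5.64 FPKM in shTPD52 and 49.3 ± 2.89 FPKM in shCtrl (SD, n = 3 each; log2 difference -0.36, limma adjusted p = 0.0565), and STAR (-0.01) and NR5A1 (0.03) overlapped. Their part in the receptor values was not tested. The 4 endothelial markers summed to 0.115 to 0.204 FPKM in shTPD52 and 0.0612 to 0.181 FPKM in shCtrl. The 3 leukocyte markers summed to 0.0919 to 0.166 and 0.0756 to 0.14 FPKM, and the 5 fibroblast and capsule markers to 0.699 to 0.814 and 0.961 to 1.24 FPKM, shTPD52 before shCtrl. Of the chromaffin markers, 3 of 5 were in the table. They summed to 0.568 to 1.23 FPKM in shTPD52 and 0.306 to 0.586 FPKM in shCtrl, with CHGA the largest in every library. On the first principal component (61% of variance) shTPD52 replicate 2 lay at -0.29, between the other shTPD52 libraries at -27.3 and -35.3 and the shCtrl libraries at 16.4 to 24.1. Mitochondrially encoded genes took 22.1% ± 2.37 (SD, n = 3) of reads in shTPD52 and 17.9% ± 0.527 (n = 3) in shCtrl.

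The comparison asks which of these receptors the cells express and whether the knockdown changed them. In limma, which fits each gene by a linear model and moderates its variance (two-sided), 18.3% of the 12782 genes averaging 1 FPKM or more passed at a Benjamini-Hochberg adjusted p under 0.05, 5.63% higher and 12.7% lower in shTPD52. The median log2 fold change of all genes was -0.11, and median-ratio scaling, which sets it near 0, turned the split from 720 higher and 1621 lower into 1083 and 1038. Of the 10 receptors and accessory proteins, MC2R, AGTR1, EDNRA and GNRHR reached the filter. MRAP, MRAP2, AVPR1A and EDNRB were under it and were each added to the fit, and MC4R and HTR4, above 0 in only 2 libraries each, were not tested. Of these 8 tested genes, 2 were called, both higher. They were also the genes of the set whose groups did not overlap, where 42.0% of all genes tested did not overlap, 13.8% with shTPD52 higher. Fold changes are on the log2(FPKM + 0.5) scale, which understates the change of low genes.

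**Figure D1:**
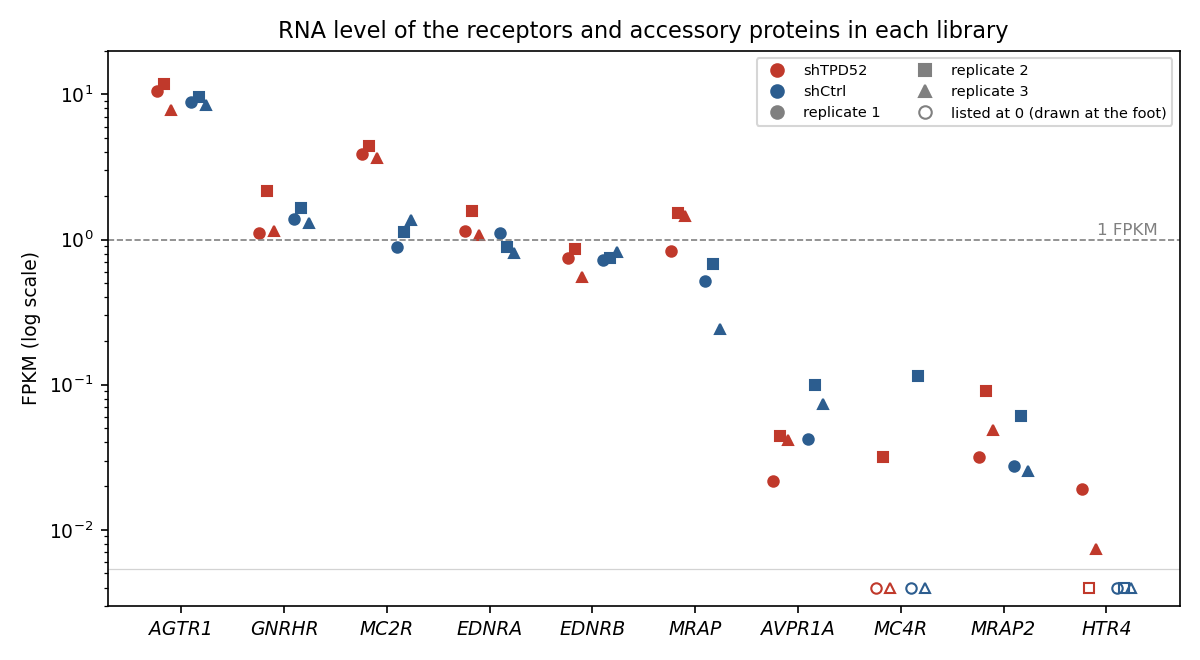
FPKM of each gene (vertical axis, log scale) in each library, shTPD52 in red left of shCtrl in blue, ordered by mean FPKM in shCtrl; marker shapes give the replicate and open markers at the foot are values listed at 0. AGTR1 stands highest in both groups, MC2R and MRAP are the genes whose groups separate upward in shTPD52, and MC4R and HTR4 are at 0 in 4 of 6 libraries each.

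MC2R (ENSG00000185231, GRCh38 chromosome 18, 13882044 to 13915707, minus strand) is the receptor that commits adrenal cells to ACTH. It stood at 3.88, 4.39 and 3.67 FPKM in shTPD52 replicates 1, 2 and 3, against 0.892, 1.12 and 1.36 FPKM in shCtrl replicates 1, 2 and 3. Every shTPD52 library lay above the highest shCtrl library. These values rest on 428, 597 and 526 reads in shTPD52 and 114, 128 and 187 reads in shCtrl, and the reads stand for fewer fragments if both mates of a pair were counted. The log2 fold change was 1.47 (SE 0.14, 95% interval 1.14 to 1.80, limma adjusted p = 0.00378). MC2R passed in all 19 alternatives, with log2 fold changes from 1.23 to 1.83 and adjusted p from 0.00131 to 0.0311. Without shTPD52 replicate 2 the log2 fold change was 1.41, and with reads of mitochondrial genes left out of the scaling it was 1.53. In bulk RNA, more cells that carry a transcript and more transcript per cell cannot be told apart.

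MRAP (ENSG00000170262, GRCh38 chromosome 21, 32291813 to 32314784, plus strand) encodes the small membrane protein that carries MC2R to the cell surface and lets it bind ACTH. It stood at 0.833, 1.53 and 1.46 FPKM in shTPD52 replicates 1, 2 and 3, against 0.522, 0.683 and 0.243 FPKM in those of shCtrl. Every shTPD52 library was above every shCtrl library, but shTPD52 replicate 1 and shCtrl replicate 2 lay close to each other. The reads were few, at 33, 75 and 75 in shTPD52 and 24, 28 and 12 in shCtrl. Added to the fit, MRAP had a log2 difference of 0.85 (SE 0.24, 95% interval 0.30 to 1.41, limma adjusted p = 0.0453). With limma-voom on recovered reads, which adds no 0.5 FPKM, it was 1.51 (adjusted p = 0.0369). The call held in 8 of 19 alternatives (adjusted p from 0.0337 to 0.147) and ended without any 1 library (adjusted p from 0.0579 to 0.147), while the sign was positive in all 19.

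MRAP shares sequence with a neighbour: 841 of its 1346 exon bases (62.5%) lie opposite exons of URB1, a gene of ribosome assembly on the other strand. URB1 stood at 3.67, 4.95 and 2.87 FPKM in shTPD52 and 5.99, 6.38 and 6.68 FPKM in shCtrl replicates 1, 2 and 3, a log2 difference of -0.69 (limma adjusted p = 0.0321). Whether reads were counted by strand is not given in the sources used here, so the level of MRAP is uncertain. URB1 moved opposite to MRAP, and its part in the MRAP value was not tested. A second antisense gene, MRAP-AS1, overlaps 100 bases and stayed under 0.6 FPKM in every library.

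MRAP2, the paralog of MRAP known for its action on melanocortin receptors in the brain, rested on 2, 7 and 4 reads in shTPD52 and 2, 4 and 2 reads in shCtrl. Its values of 0.0317 to 0.0898 FPKM in shTPD52 and 0.0254 to 0.0612 FPKM in shCtrl overlapped, around the 0.0365 to 0.0474 FPKM that 3 reads are worth. MC4R, the melanocortin receptor of appetite control, had 2 reads in shTPD52 replicate 2 and 6 in shCtrl replicate 2 and was at 0 in the other libraries. A difference in either gene could not be judged at this depth. The value of 3 reads covers counting error only, and MC4R was not tested.

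**Figure D2:**
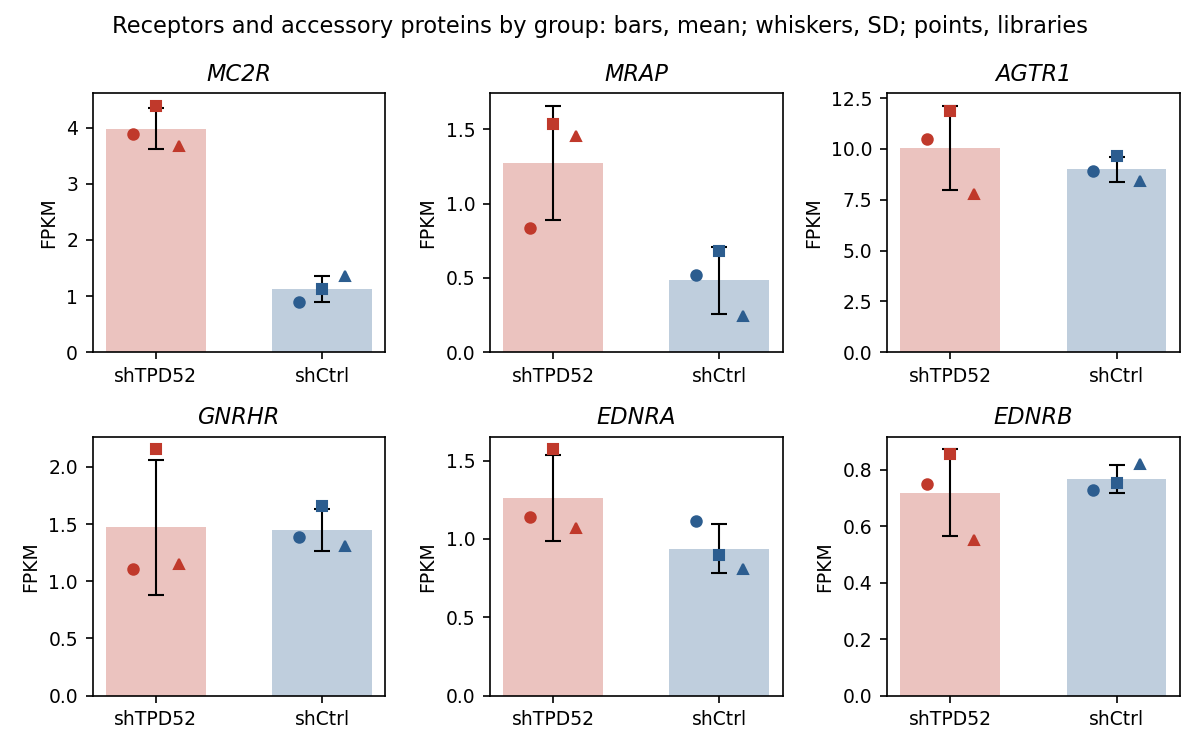
FPKM (linear vertical axes from 0) of the 6 members with the most reads, shTPD52 left and shCtrl right; bars are means, whiskers SD over 3 libraries, and marker shapes replicates 1 (circle), 2 (square) and 3 (triangle). The MC2R and MRAP libraries of shTPD52 lie above all shCtrl libraries, while those of AGTR1, GNRHR, EDNRA and EDNRB overlap, with shTPD52 replicate 2 the highest shTPD52 library in each panel.

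AGTR1 (ENSG00000144891, GRCh38 chromosome 3, 148697784 to 148743008, plus strand), the type 1 angiotensin II receptor, stood at 10.5, 11.9 and 7.77 FPKM in shTPD52 replicates 1, 2 and 3. In shCtrl replicates 1, 2 and 3 it stood at 8.92, 9.65 and 8.43 FPKM. The groups overlapped, with shTPD52 holding both the highest and the lowest value. With 1038 to 1505 reads per shTPD52 library and 1026 to 1082 per shCtrl library, it was the deepest measured gene of the set. Its log2 difference was 0.13 (SE 0.15, limma adjusted p = 0.536), with a 95% interval of -0.21 to 0.48 that leaves out the change measured for MC2R. AGTR1 passed in none of 19 alternatives (log2 fold change from 0.01 to 0.30, adjusted p from 0.117 to 0.971).

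Ratios within a library do not depend on a factor applied to all its genes alike. Quantile normalization and the length and GC correction shift genes unequally and can change such ratios. MC2R was at 0.371, 0.37 and 0.473 of the AGTR1 level in shTPD52 replicates 1, 2 and 3, and at 0.1, 0.116 and 0.161 of it in shCtrl replicates 1, 2 and 3. The groups did not overlap, and the mean log2 ratio was 1.70 higher in shTPD52 (exact permutation p = 0.1, two-sided). With 3 against 3 libraries this test cannot give less. The ratio sets the MC2R values compared above over a gene that was not called, so its separation is not separate support. The same holds for the ratios to SF-1 and GNRHR RNA. Against SF-1 RNA the MC2R ratio was 0.0544 ± 0.00782 in shTPD52 and 0.0157 ± 0.00325 in shCtrl (SD, n = 3 each; exact permutation p = 0.1). The ratio of MC2R to MRAP was 4.66, 2.86 and 2.52 in shTPD52 and 1.71, 1.64 and 5.6 in shCtrl, so the groups overlapped (exact permutation p = 0.6).

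**Figure D3:**
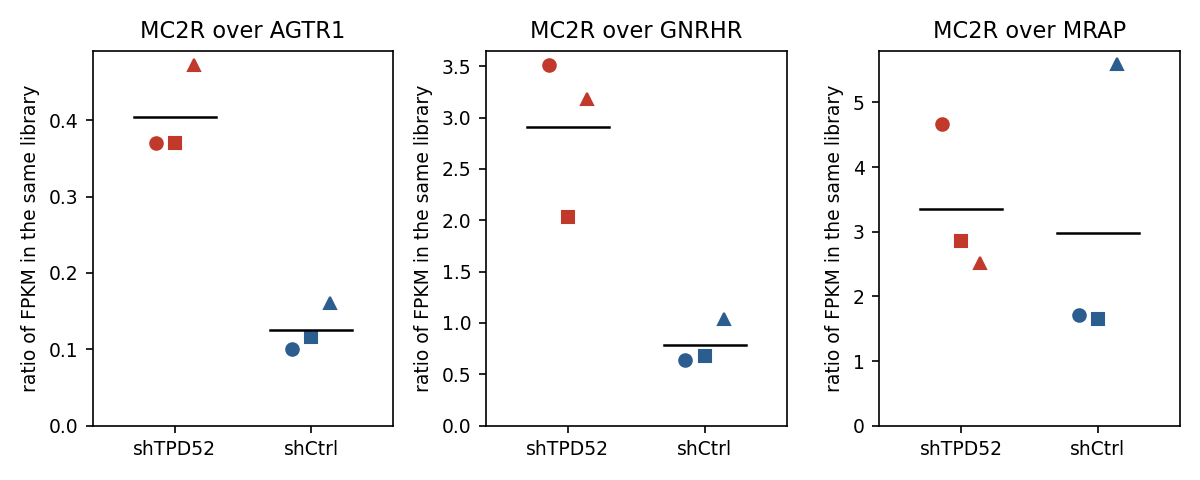
Ratio of MC2R FPKM to the FPKM of AGTR1, GNRHR and MRAP in the same library (linear axes from 0), shTPD52 left and shCtrl right; points are libraries, shapes are replicates 1 to 3 and lines are group means. The ratios to AGTR1 and GNRHR separate the groups, and the ratio to MRAP does not. All these ratios rest on the same MC2R values.

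Ordered by level, AGTR1 came first in both groups, at a mean of 10.0 ± 2.08 FPKM in shTPD52 and 9.0 ± 0.61 FPKM in shCtrl (SD, n = 3 each), above every library of the gene next in order. In shTPD52 MC2R followed, clear of GNRHR. GNRHR, MRAP and EDNRA came next without separation, then EDNRB. In shCtrl GNRHR, MC2R, EDNRA and EDNRB followed AGTR1 with each overlapping its neighbour, and MRAP stood below all of them. MC2R was at 0.641 to 1.04 of the GNRHR level in shCtrl libraries and at 2.04 to 3.51 of it in shTPD52 libraries. The mean log2 difference was 1.88 (exact permutation p = 0.1). This ratio too reuses the MC2R values and is not separate support.

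GNRHR (ENSG00000109163, GRCh38 chromosome 4, 67739328 to 67754360, minus strand) encodes the pituitary receptor of gonadotropin-releasing hormone, a Gq-coupled receptor. It stood at 1.11, 2.15 and 1.15 FPKM in shTPD52 replicates 1, 2 and 3, against 1.39, 1.66 and 1.31 FPKM in shCtrl replicates 1, 2 and 3. Replicate 2 of shTPD52 lay above and the other libraries below all of shCtrl. GNRHR gave whole reads at a length of 4402 bases and not at its 2164 exon bases in GENCODE. Its gene model, and so its level beside other genes, is therefore uncertain. UBA6-DT on the opposite strand overlaps 82 of the GENCODE exon bases. The log2 fold change was -0.02 (95% interval -0.51 to 0.47, limma adjusted p = 0.953), and it was -0.26 without shTPD52 replicate 2 (adjusted p = 0.167) and 0.11 without shTPD52 replicate 1 (adjusted p = 0.777). Over 19 alternatives adjusted p ran from 0.167 to 0.974.

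The endothelin receptors differ in their use: EDNRA mediates constriction in vascular muscle, and EDNRB, which also clears endothelin, takes part in neural crest development. EDNRA stood at 1.14, 1.57 and 1.07 FPKM in shTPD52 and at 1.12, 0.895 and 0.806 FPKM in shCtrl replicates 1, 2 and 3. The groups overlapped through shTPD52 replicate 3 and shCtrl replicate 1. Its log2 fold change was 0.29 (95% interval -0.10 to 0.67, limma adjusted p = 0.235), positive in all 19 alternatives and called in none (adjusted p from 0.089 to 0.481). EDNRB stood at 0.748, 0.855 and 0.553 FPKM in shTPD52 and at 0.728, 0.752 and 0.822 FPKM in shCtrl, a log2 difference of -0.06 (95% interval -0.43 to 0.31, limma adjusted p = 0.793). EDNRB overlapped fully between the groups, and its sign turned under median-ratio scaling. EDNRA over EDNRB was 1.77 ± 0.214 in shTPD52 and 1.23 ± 0.278 in shCtrl (SD, n = 3 each; exact permutation p = 0.2).

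AVPR1A, the vasopressin receptor of vessels and adrenal cortex, rested on 4, 10 and 10 reads in shTPD52 and on 9, 19 and 17 reads in shCtrl. Its levels of 0.0218, 0.0441 and 0.0419 FPKM in shTPD52 and 0.0422, 0.0999 and 0.0741 FPKM in shCtrl overlapped. On the log2(FPKM + 0.5) scale such low values can hardly move (-0.09, limma adjusted p = 0.765), and limma-voom on reads gave -0.90 (adjusted p = 0.228; adjusted p from 0.228 to 0.946 over 19 alternatives). HTR4, the serotonin receptor through which serotonin stimulates human aldosterone output, had 4 and 2 reads in shTPD52 replicates 1 and 3, 0 in shTPD52 replicate 2 and 0 in every shCtrl library. If reads were independent, a count of 0 would allow up to 3 of them, or 0.0111 to 0.0144 FPKM for this gene. The limit is higher if both mates of a pair were counted, so no fold is given.

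**Figure D4:**
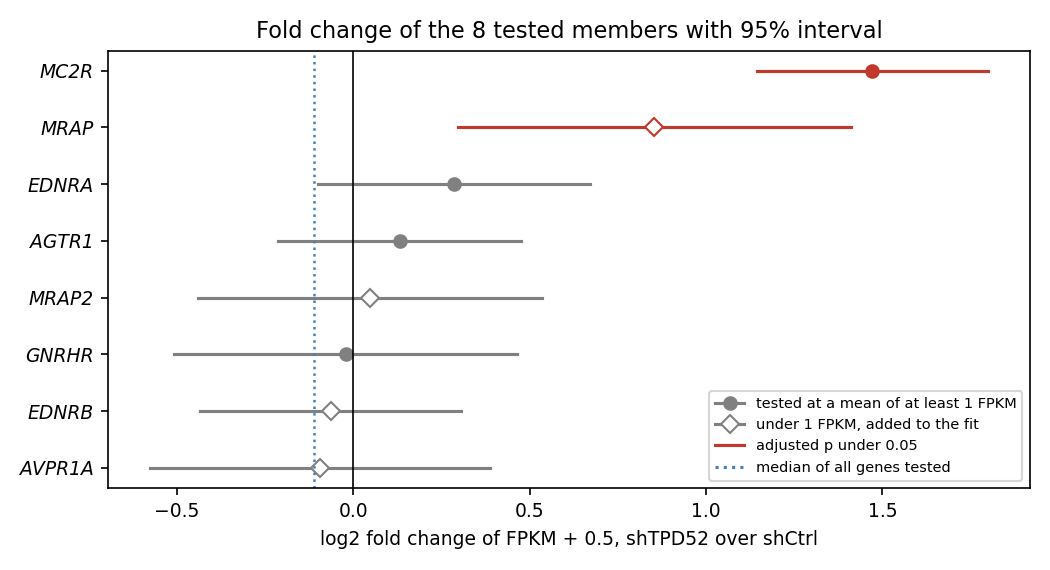
Log2 fold change of FPKM + 0.5, shTPD52 over shCtrl (horizontal axis), with 95% intervals from limma for the 8 tested genes; diamonds mark genes under the filter that were added to the fit, red marks adjusted p under 0.05, and the dotted line is the median of all genes tested, -0.11. The MC2R and MRAP intervals lie above 0 and the other 6 span it.

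Genes whose profile over the 6 libraries came closest to that of MC2R were sought among 10704 other protein-coding genes, by the root mean square difference of log2 deviations from each gene's mean. CCL22, a macrophage-derived chemokine gene, was closest at 0.0901, where MC2R itself had a root mean square deviation of 0.748. It stood at 7.48, 7.65 and 7.09 FPKM in shTPD52 and at 2.23, 2.79 and 2.91 FPKM in shCtrl. CST1, a cystatin gene, CYP19A1, which encodes aromatase, FAM166B and SPRR1B followed at differences of 0.164 to 0.204. For AGTR1 the closest were RCN2, SCP2, which encodes a sterol carrier protein, COIL, SSX2IP and ANP32E, at differences of 0.0473 to 0.0524 against an AGTR1 deviation of 0.192. Their log2 fold changes ran from 0.07 to 0.15 and none was called. Likeness over 6 libraries in 2 groups mostly reflects the group difference for MC2R and the spread between libraries for AGTR1.

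Of 120 other genes of these pathways, listed in 7 sets, 9 were not found by symbol in the deposited table. Each of the rest was above 0 in at least 1 library, as was every gene of that table. A mean of 1 FPKM was reached by 46, and of these 1 was called higher and 10 lower, where 5.63% of all genes tested were higher and 12.7% lower. Correcting for gene length and GC content gave 5 calls higher and 4 lower among the 46, so the mostly lower direction did not hold there (1307 higher and 1293 lower over all genes). Among the other melanocortin genes 1 of 4 tested was lower. MC1R, the pigment cell receptor, stood at 2.40, 2.70 and 2.56 FPKM in shTPD52 and at 3.56, 3.29 and 4.52 FPKM in shCtrl (log2 fold change -0.48, limma adjusted p = 0.0412). That call ended with median-ratio scaling (-0.37, limma adjusted p = 0.0733) and held in 7 of 18 alternatives (limma adjusted p from 0.0203 to 0.152). MC1R shares 9.83% of its exon bases with TCF25 and 21.4% with ENSG00000198211, both on the same strand. It shares 16.2% with ENSG00000259006, an antisense gene on the opposite strand. AGRP, an antagonist of brain melanocortin receptors, was at 6.32, 8.7 and 18.3 FPKM in shTPD52 and at 6.27, 4.53 and 6.26 FPKM in shCtrl and did not pass (log2 fold change 0.78, limma adjusted p = 0.125; adjusted p from 0.0458 to 0.31 over 19 alternatives). POMC, the precursor of ACTH, named after its values were seen, was at 0.704 to 1.12 FPKM in shTPD52 and 0.635 to 0.765 FPKM in shCtrl.

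Of the renin-angiotensin genes 3 of 10 reached the filter and none was called. AGTRAP, a protein that promotes internalisation of the angiotensin II receptor, was the most abundant at 19.0 ± 3.36 FPKM in shTPD52 and 19.0 ± 0.969 FPKM in shCtrl (SD, n = 3 each; log2 fold change -0.01, limma adjusted p = 0.962), its sign turning with median-ratio scaling. Among genes that make the ligands of the other receptors, only ECE1 reached the filter. ECE1, the enzyme that makes mature endothelin, fell to 28.1 ± 3.4 FPKM in shTPD52, against 40.5 ± 1.43 FPKM in shCtrl (n = 3 each; log2 difference -0.53, limma adjusted p = 0.0175). After a correction for gene length and GC content it was -0.27 (adjusted p = 0.0337; adjusted p from 0.00213 to 0.0879 over 19 alternatives).

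Of 35 further genes listed as receptors of other secretagogues or their partners, 29 were in the table and 7 were tested. Among these 7, 1 rose and 2 fell, where 5.63% of all genes tested were higher and 12.7% lower. RAMP2, a partner of the calcitonin-like receptor in the adrenomedullin receptor, with 35.9% of its exon bases opposite RAMP2-AS1, stood at 2.31, 2.21 and 3.01 FPKM in shTPD52 and at 1.596, 1.349 and 1.05 FPKM in shCtrl (log2 fold change 0.72, limma adjusted p = 0.0263). GIPR, the incretin receptor whose adrenal expression causes food-dependent cortisol excess, was at 0.988, 0.957 and 0.889 FPKM in shTPD52 and 1.78, 1.503 and 1.77 FPKM in shCtrl (log2 fold change -0.59, limma adjusted p = 0.0236). DRD4, a dopamine receptor that couples to inhibitory G proteins, was at 2.14, 2.08 and 1.596 FPKM in shTPD52 and 3.36, 3.51 and 2.91 FPKM in shCtrl (log2 fold change -0.63, limma adjusted p = 0.0226). Each of these calls held in 12 of 18 alternatives. PTH2R was the most abundant, at 3.40 ± 0.0793 FPKM in shTPD52 and 4.14 ± 0.358 FPKM in shCtrl, and did not pass (limma adjusted p = 0.112).

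Of 8 tested genes for stimulatory and inhibitory G proteins and adenylyl cyclases, 4 were lower and none higher. Over all genes 12.7% were lower and 5.63% higher, and the list median log2 fold change was -0.32. GNAS, named after its values were seen, encodes the stimulatory subunit, the G protein type to which MC2R couples. It was at 47.2 ± 2.15 FPKM in shTPD52 and 50.9 ± 2.74 FPKM in shCtrl and did not pass (log2 fold change -0.11, limma adjusted p = 0.33). The adenylyl cyclase ADCY6, which makes cyclic AMP, was at 10.8, 17.4 and 11.0 FPKM in shTPD52 and 21.5, 20.2 and 23.3 FPKM in shCtrl (log2 fold change -0.74, limma adjusted p = 0.0294). ADCY3 had -0.56, ADCY9 -0.45 and GNAZ, an inhibitory G protein subunit, -0.43 (limma adjusted p = 0.0411, 0.043 and 0.0295). GNAI2, the most abundant at 84.1 ± 1.82 FPKM in shTPD52 and 76.3 ± 0.924 FPKM in shCtrl, did not pass (limma adjusted p = 0.16), and in 1 alternative, the length and GC correction, it was called higher. ADCY9 lost its call with median-ratio scaling (-0.35, adjusted p = 0.0516). After the length and GC correction the list's median was 0.01, with 1 gene higher and 1 lower. ADCY3 shares 24.6% of its exon bases with CENPO on the opposite strand.

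Downstream of AGTR1, 1 of 10 tested genes for Gq proteins, phospholipases C and protein kinases C and D was lower and none higher, with a list median of -0.22. That count lies near the 12.7% of all genes called lower. Correcting for length and GC content gave 1 call higher and 0 lower, with a median of -0.05. PRKD2, a protein kinase D, was at 17.4, 16.75 and 17.6 FPKM in shTPD52 and 20.7, 20.6 and 20.8 FPKM in shCtrl (log2 difference -0.26, limma adjusted p = 0.0431) and lost its call under median-ratio scaling (-0.14, adjusted p = 0.27). PRKD3, the most abundant, was at 30.3, 45.3 and 25.6 FPKM in shTPD52 and 39.7, 42.9 and 41.4 FPKM in shCtrl and did not pass (limma adjusted p = 0.223). It was called without shTPD52 replicate 2 (log2 fold change -0.56, adjusted p = 0.00328). Of 13 tested genes of receptor desensitization 1 was lower, a share under the 12.7% of all genes, and correcting for length and GC content gave 2 calls higher and 0 lower. The gene called lower, GRK4, a receptor kinase, had a log2 difference of -0.43 (limma adjusted p = 0.0391) and lost its call when scaled by median ratios (-0.33, adjusted p = 0.068). RGS2, a brake on Gq signalling, was the most abundant at 24.8 ± 0.328 FPKM in shTPD52 and 25.4 ± 0.8 FPKM in shCtrl (n = 3 each; limma adjusted p = 0.728).

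The 11 calls in these 7 sets came to 0 without shTPD52 replicate 1 or any 1 shCtrl replicate, to 1 without shTPD52 replicate 3 and to 17 without shTPD52 replicate 2. Calls over all genes moved with the same libraries, to 160, 5822 and 888 without shTPD52 replicates 1, 2 and 3 and to 227, 456 and 93 without shCtrl replicates 1, 2 and 3.

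**Figure D5:**
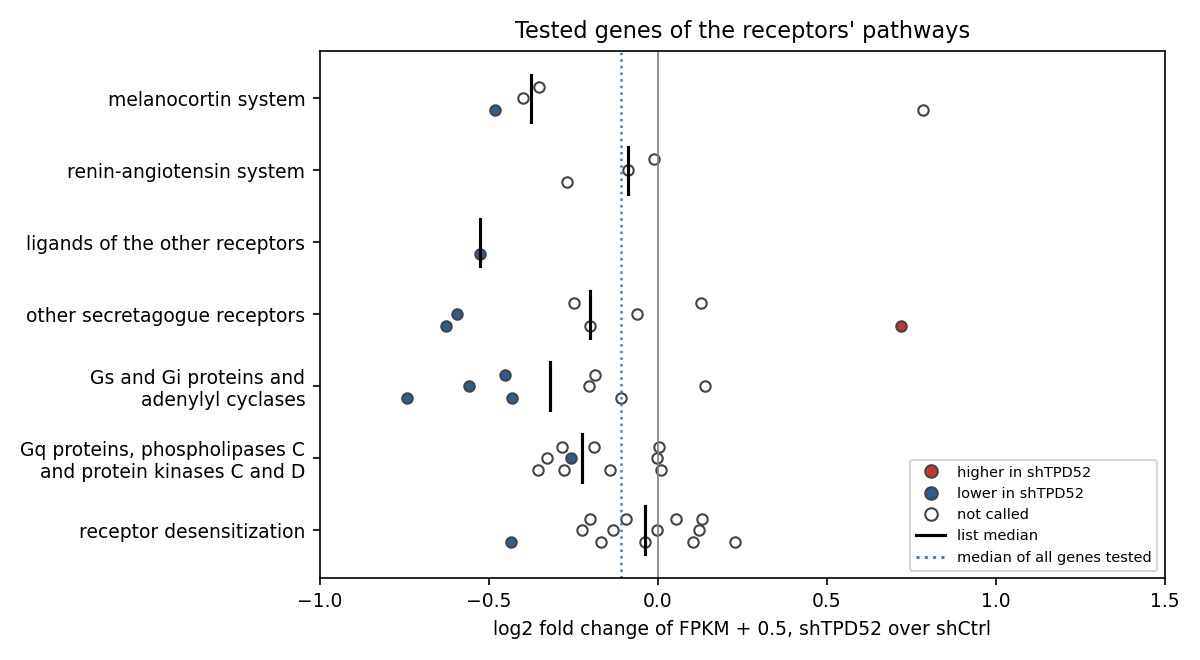
Log2 fold change of FPKM + 0.5, shTPD52 over shCtrl (horizontal axis), of the 46 tested genes in the 7 pathway sets (rows); filled points passed at adjusted p under 0.05 (red higher, blue lower), black bars are set medians and the dotted line is the median of all genes tested. RAMP2 is the called gene to the right of 0, and the adenylyl cyclases and GNAZ lie to the left.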

How the data were processed

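RNA was sequenced from 3 shTPD52 and 3 shCtrl libraries. The authors deposited FPKM for 34869 genes, 1 column per library. Per the submitters' processing notes, HISAT2 2.2.1, featureCounts 2.0.3 and GRCh38 (hg38) were used, with no role given for each. For annotation release, filters and strandedness the sources used here give nothing. Symbols were matched by identifier for 34864 genes. Coordinates are those of GENCODE on GRCh38.

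Reads were recovered as FPKM times gene length times library total, at the GENCODE exon length (19235 genes) or the nearest length that gave whole reads within 0.02 (14130 genes). That choice makes the reads whole, so it does not check them. Odd numbers made up 26.0% to 29.4% of counts from 1 to 20, the pattern that counting both mates would leave. Intervals and the floor of 3 reads cover counting error only.

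Deposited FPKM were compared without further scaling in limma 3.58.1 (R 4.3.3, intensity trend) on log2(FPKM + 0.5), for genes averaging 1 FPKM or more, with Benjamini-Hochberg adjustment over all of them. Members under 1 FPKM and above 0 in at least 3 libraries were each added to that fit. The scripts were tested on simulated data. Named were all members, TPD52, up to 4 called genes and the most abundant gene of each set, and the 5 genes most like MC2R and AGTR1. The members and lists were chosen with earlier results of these data known. The 19 alternatives were pseudocounts of 0.1 and 1, filters of none, 0.1 and 5 FPKM, median-ratio and quantile scaling, scaling without mitochondrial genes, a length and GC correction (loess, span 0.3), limma without trend or with a robust prior, limma-voom on recovered reads, the replicate number as a block, and leaving out each library.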

Additional observations from a re-analysis of the deposited data

How the results depend on the processing

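MC2R kept its direction and call under all 19 alternatives, and AGTR1 and EDNRA kept their direction and stayed uncalled. MRAP lost its call with a pseudocount of 0.1 (log2 fold change 1.28), without a filter, with filters of 0.1 and 5 FPKM (0.85 each) and after the length and GC correction (0.77); leaving out 1 library gave 0.67 to 1.05. The called members then numbered 1, as they did without any 1 library, where the count was 1 each time. Signs turned for genes that were never called: MRAP2 after the length and GC correction (-0.0305), AVPR1A with quantile normalization (0.13) and after that correction (0.0297), EDNRB with median-ratio scaling (0.0073), quantile normalization (0.0186) and that correction (0.0395), and GNRHR with median-ratio scaling (0.0675), quantile normalization (0.10) and scaling without mitochondrial genes (0.0341). Leaving out 1 library gave -0.14 to 0.0382 for EDNRB and -0.26 to 0.11 for GNRHR. The cause of these changes was not tested.

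Genes called numbered 2341, against 531 without a filter (34869 genes tested), 1426 with a filter of 0.1 FPKM and 93 to 5822 without 1 library. Calls in the 7 pathway sets numbered 11, against 0 without a filter, 4 with filters of 0.1 or 5 FPKM, 7 with median-ratio scaling, quantile normalization or scaling without mitochondrial genes, and 0 to 17 without 1 library; the length and GC correction called 9, 5 higher and 4 lower. With the replicate number as a block the calls numbered 3064, and MC2R (adjusted p = 0.00416) and MRAP (0.0337) were called; same-numbered libraries correlated at 0.0451, 0.248 and 0.0223 in their deviations, so the numbers were not taken as pairing. Depth limits MC4R, HTR4, MRAP2 and AVPR1A, each at 19 reads or fewer per library.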
